A study of Homo sapiens with 12 samples.

Results

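The BCL2 family decides at the mitochondrial outer membrane whether a stressed cell starts apoptosis, and 10 of its genes are described here in A549 cells with raised or lowered NR0B1. The genes were taken by symbol from the deposited transcript table: the prosurvival genes BCL2, BCL2L1 and MCL1, the pore-forming effector BAK1, and the BH3-only genes BID, BCL2L11, BMF, BBC3, PMAIP1 and BIK. They are 10 of the 19647 genes with Ensembl transcripts in the table, and the values of all transcripts of a gene were summed. BAX, the other main effector, was not among the chosen genes and is given with the rest of the pathway.

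A549 is an established human non-small cell lung cancer line, derived from a lung adenocarcinoma, and NR0B1 (DAX1) is an orphan nuclear receptor that mostly represses transcription. RNA sequencing covered 12 libraries in 4 groups of 3: cells with NR0B1 overexpression, their wild-type control (labelled OEC), NR0B1 knockdown cells carrying a short hairpin RNA (shNR0B1), and their wild-type control (labelled shNC). All were labelled as untreated A549 cells. The sources used here do not give the vectors, the promoter behind the NR0B1 transgene or the hairpin sequence, nor whether each line was a clone or a pool. No label says whether replicates came from separate cultures, so p-values measure only the spread between these samples.

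Prosurvival proteins such as BCL2, BCL-XL (from BCL2L1) and MCL1 hold the effectors BAX and BAK in check. BH3-only proteins are induced or activated by stress, occupy the groove of the prosurvival proteins and set the effectors free to open the membrane and release cytochrome c. Several of them are controlled at transcription, among them BBC3 (PUMA), PMAIP1 (NOXA) and BCL2L11 (BIM), a known target of FOXO factors. Lung cancer lines commonly depend on BCL-XL and MCL1.

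The promoters of 2 BH3-only genes that passed the test, BCL2L11 in the knockdown and BBC3 with overexpression, are shown first. Each runs 5′ to 3′ from 250 bases before to 50 bases after the RefSeq start (GRCh38.p14), at chr2:111120664-111120963 on the plus strand and chr19:47232618-47232917 on the minus strand. Capitals mark a FOXO motif in the first, and an E-box followed by an AP-1 motif in the second.
BCL2L11 promoter: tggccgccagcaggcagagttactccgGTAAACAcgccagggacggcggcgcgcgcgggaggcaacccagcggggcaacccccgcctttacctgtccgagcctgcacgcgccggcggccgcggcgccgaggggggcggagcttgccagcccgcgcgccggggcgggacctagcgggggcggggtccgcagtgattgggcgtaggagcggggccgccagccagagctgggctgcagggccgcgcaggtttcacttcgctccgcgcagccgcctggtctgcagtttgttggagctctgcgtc
BBC3 promoter: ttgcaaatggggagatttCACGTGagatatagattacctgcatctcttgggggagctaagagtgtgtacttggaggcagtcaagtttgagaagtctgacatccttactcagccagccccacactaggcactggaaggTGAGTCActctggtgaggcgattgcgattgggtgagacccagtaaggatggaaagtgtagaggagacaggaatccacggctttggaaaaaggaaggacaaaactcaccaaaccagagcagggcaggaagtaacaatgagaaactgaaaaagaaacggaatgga
Motifs were searched on both strands as exact letters: FOXO GTAAACA, E-box CACGTG, AP-1 TGANTCA, CRE TGACGTCA, NR5A CAAGGTCA, C/EBP-ATF TGATGNAAT, GC box GGGGCGGGG and an NF-kB motif. No match overlapped a match of another motif. The FOXO motif of BCL2L11 lay at position -223 relative to the start, and 3.42% of 35116 RefSeq promoters of this length hold one. The BBC3 E-box lay at -232 and its AP-1 motif at -113, and 7.26% and 7.71% of promoters hold these motifs. Promoter entries matched 8 of the 10 genes, with 14 windows in all. Among the other members an E-box was found for BID, and a GC box (held by 15.7% of promoters) for BCL2L11, BID, BMF and PMAIP1. The CRE, NR5A, C/EBP-ATF and NF-kB letters, held by 1.85%, 1.28%, 0.991% and 1.91% of promoters, were in no member's window. These matches describe letters only.

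A splice junction tells apart the transcripts of MCL1 whose shares did not overlap between overexpression and its control. MCL1 lies on chromosome 1 from 150574551 to 150579738 on the minus strand (GRCh38). MCL1-202 has all 3 exons and codes for 350 codons, the long prosurvival form. MCL1-201 skips exon 2 (chromosome 1 from 150578244 to 150578491, 248 bases) and codes for 271 codons, the short form that is known to act like a BH3-only protein. In the junctions below, from the GENCODE 29 exons on GRCh38, lower case is the end of the first exon and capitals are the first 30 bases of the exon joined to it.
MCL1-202 junction: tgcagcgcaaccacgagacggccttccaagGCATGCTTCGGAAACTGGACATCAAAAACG
MCL1-201 junction: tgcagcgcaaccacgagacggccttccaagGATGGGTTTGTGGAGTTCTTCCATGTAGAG

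Libraries held between 12800748 and 19654432 expected counts in Ensembl transcripts. Of 7 lung epithelial markers, 6 had an FPKM of 1 or more in every library. Leukocyte markers summed to between 0.43 and 1.68 FPKM, with CD3E and MS4A1 at 0 throughout, and endothelial and stromal markers to between 0.09 and 0.81 FPKM. NR0B1 itself stood at 98.9, 81.8 and 84.1 CPM (counts scaled to library size) with overexpression against 17.9, 60.1 and 55.2 CPM in its control, a difference that did not pass the test (log2 fold change 0.99, adjusted p = 0.0912). Without overexpression control replicate 1, whose 17.9 CPM lay apart, it was 0.62 (adjusted p = 0.106), and DESeq2 and limma on FPKM called the difference (adjusted p = 0.0415 and 0.0452). NR0B1 fell in the knockdown to 2.99, 3.31 and 5.84 CPM from 16.3, 21.1 and 13.3 CPM (log2 fold change -2.06, adjusted p = 0.00593). Between the controls it was higher on the overexpression side (log2 1.40, SE 0.39, adjusted p = 0.0189), though the libraries of these groups overlapped. Overexpression control replicate 1 and knockdown replicate 2 correlated least with the other libraries of their groups, with mean r across genes of 0.937 and 0.912. Among the 10 family genes, knockdown replicate 2 was the highest of its group for 8, and overexpression control replicate 1 for 7. Each test was also fitted without these libraries.

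In GENCODE 29, exons of BCL2L1 overlap the antisense ABALON, those of BAK1 GGNBP1, those of BCL2L11 MIR4435-2HG and those of BMF BMF-AS1, and BAK1 has the pseudogenes BAK1P1 and BAK1P2. MCL1 overlaps ADAMTSL4-AS1 on its own strand, and BBC3 overlaps MIR3190 and MIR3191. None of these neighbours was analysed here, and whether counting used strand is not given, so the values of these members may include reads of their neighbours.

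Between genes, levels are compared in FPKM, which is per transcript length. BCL2L1 was the most abundant member, with a mean of 161 FPKM over the 12 libraries (137 to 187), followed by MCL1 with 93.4 FPKM (60.7 to 120). BID came next with 20.8 FPKM (11.6 to 35.4). The ranges of these 3 genes did not overlap. PMAIP1 (15.9 FPKM), BAK1 (13.8 FPKM), BBC3 (11 FPKM) and BCL2L11 (7.44 FPKM) followed, and each overlapped its neighbour in the order. BMF had a mean of 2.09 FPKM, BCL2 0.853 FPKM and BIK 0.648 FPKM. Their ranges overlapped as well, and BCL2, the gene that named the family, was thus among the 3 lowest members. BCL2L1 was the steadiest member, its highest library standing 1.37 times above its lowest. BBC3 and BCL2L11 spanned 7.97 and 5.59 times between lowest and highest library.

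**Figure D1:**
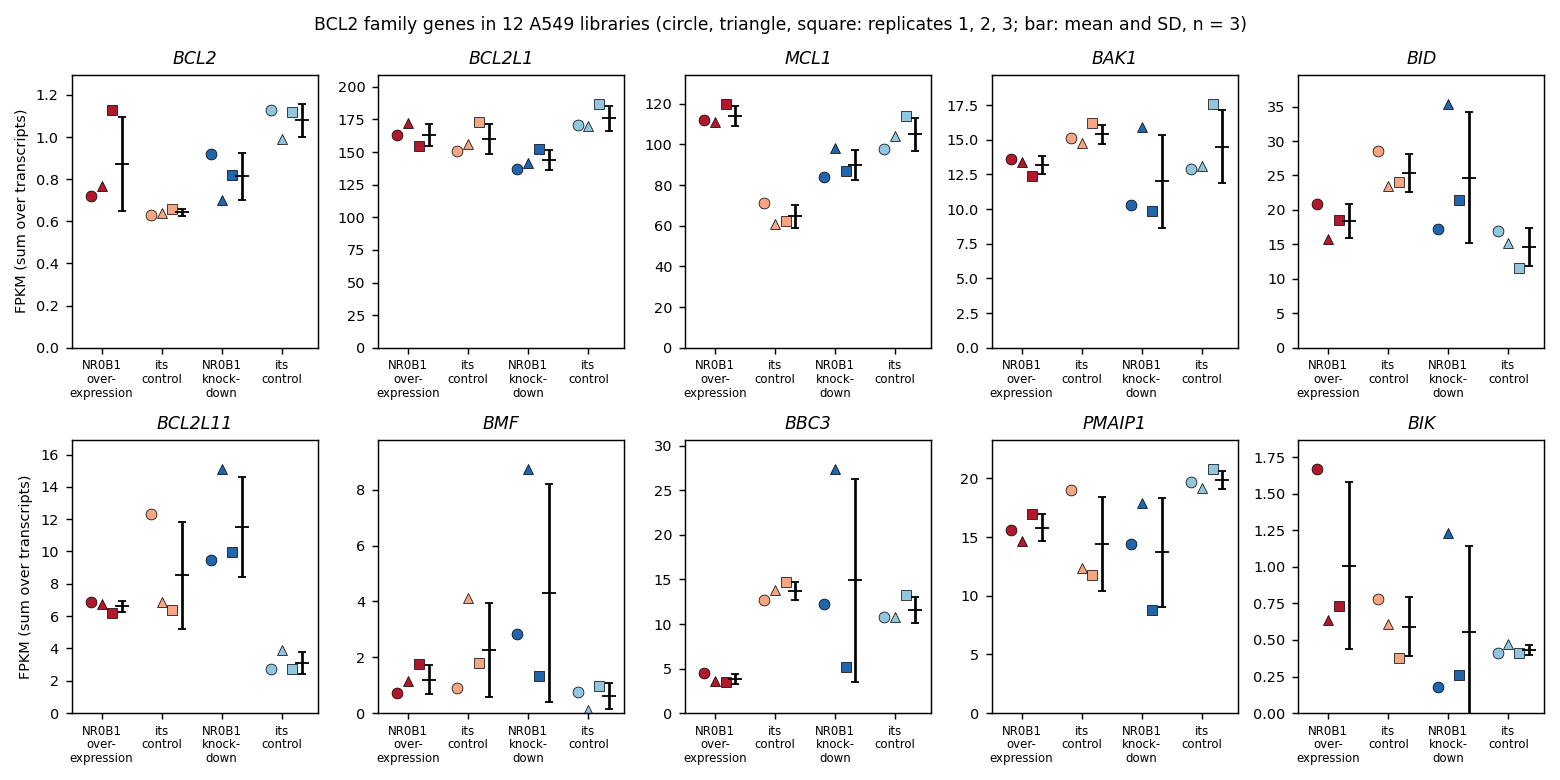
FPKM of each family gene (vertical axis, linear, from 0) in the 12 libraries, grouped by condition on the horizontal axis. Points are libraries, with circle, triangle and square for replicates 1, 2 and 3, and bars are mean and SD (n = 3, parts below 0 not drawn). The 3 overexpression libraries sit above the 3 of their control for MCL1 and below them for BBC3, and the 3 knockdown libraries sit above their control for BCL2L11.

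Testing required 1 FPKM in 3 or more libraries, which 9 members reached. BIK, with 2 such libraries, was not tested. With overexpression 2 of the 9 passed an adjusted p of 0.05 (edgeR's quasi-likelihood test, Benjamini-Hochberg adjusted over 11908 genes): MCL1 rose and BBC3 fell. Of all genes tested, 18.1% were called in this comparison, 9.87% higher and 8.2% lower. In the knockdown 2 of 9 were called, BCL2L11 and BMF, both higher, where 23.9% of all genes were called and 12.4% were called higher. The median log2 fold change of the 9 genes was -0.24 with overexpression and -0.19 in the knockdown, against -0.031 and 0.028 over all genes tested.

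MCL1, a short-lived prosurvival protein whose level follows its synthesis closely, was the prosurvival gene that rose with overexpression. Its overexpression libraries held 524, 503 and 534 CPM and their control libraries 352, 290 and 306 CPM. The 3 overexpression libraries were close together and all above the control. In bulk RNA, as here, a change in the number of cells that express a gene and a change in RNA per cell cannot be told apart. The means were 520 ± 15.9 and 316 ± 32.5 CPM (SD, n = 3), a 1.65-fold rise (log2 fold change 0.72, SE 0.11, adjusted p = 0.00297). This call held in 22 of 22 other settings, and without overexpression control replicate 1 the log2 fold change was 0.81. In the knockdown MCL1 stood at 395, 463 and 412 CPM against 446, 476 and 531 CPM, and these groups overlapped (log2 fold change -0.19, SE 0.11, adjusted p = 0.219). Without both libraries that stand apart this difference was called (log2 fold change -0.26, adjusted p = 0.0341). The responses of the arms differed by 0.92 on the log2 scale (SE 0.16, adjusted p = 0.0024).

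The control groups differed for MCL1 as well. Its level in the overexpression control was 1.53-fold below that of the knockdown control (log2 -0.62, SE 0.11, adjusted p = 0.00236). The order of the group means was overexpression, knockdown control, knockdown, overexpression control. The overexpression libraries at 503 to 534 CPM thus overlapped the knockdown control at 446 to 531 CPM.

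Shares of MCL1 transcripts were compared too. With overexpression the FPKM shares of 3 of 40 member transcripts did not overlap with the control, beside 16.3% of transcripts over all genes, and those of MCL1-201 and MCL1-202 were among them. MCL1-201 held 6.09%, 8.22% and 9.58% of the MCL1 FPKM in the overexpression libraries against 1.9%, 1.19% and 0% in their control, which do not overlap. The mean difference was 6.93 percentage points (two-sided exact permutation p = 0.1, the smallest that 3 against 3 libraries allow). The long form MCL1-202 held 93.3%, 82.5% and 78.3% against 93.3%, 97.3% and 99.2%, so that replicate 1 of both groups lay close together, and its shares of expected counts overlapped (97.6%, 88.3% and 85% against 95%, 98.2% and 99.3%). Counted as a share of expected counts, MCL1-201 stood at 1.8%, 2.48% and 2.93% against 0.543%, 0.337% and 0%, a difference of 2.11 points. The 197-codon MCL1-204 held 0.591%, 9.28% and 12.1% of MCL1 FPKM with overexpression against 4.76%, 1.55% and 0.756%, which overlap. The mean share of expected counts differed by 5.08 points for MCL1-204 and by -7.19 points for MCL1-202. The lower mean share of MCL1-202 thus lay beside a larger gain of MCL1-204 than of MCL1-201. In the knockdown MCL1-201 held 2.4%, 0.863% and 3.19% against 3.53%, 1.07% and 1.2%, and the groups overlapped (exact permutation p = 1). The annotated MCL1-201 is 1110 bases long against 3932 for MCL1-202, and FPKM divides by length.

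**Figure D2:**
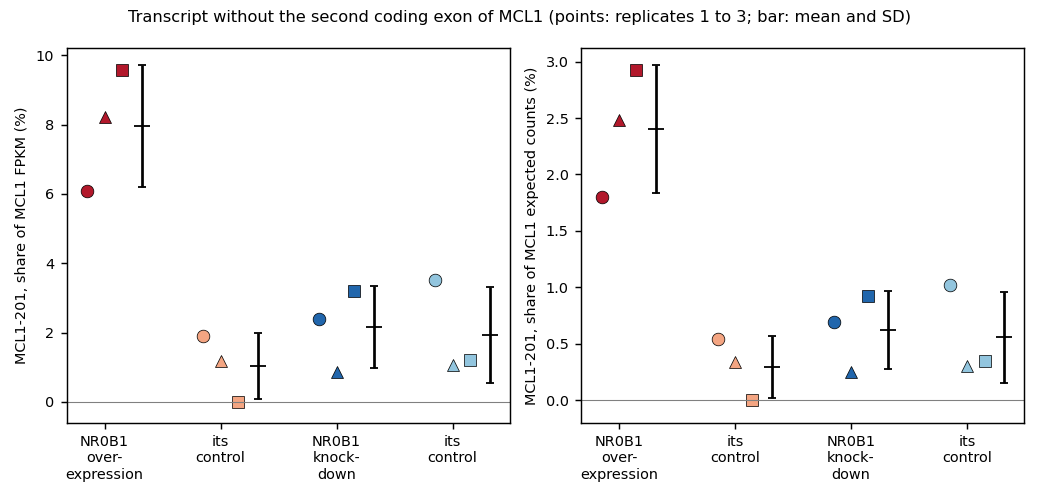
Share of MCL1-201, the transcript without exon 2, in all MCL1 transcripts (vertical axes, percent; left of FPKM, right of expected counts) by group, with circle, triangle and square for replicates 1, 2 and 3 and bars for mean and SD (n = 3). On both scales the 3 overexpression libraries lie above the other 9.

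BCL2L1, which codes for BCL-XL and, by a shorter splice form, for the proapoptotic BCL-XS, passed the test in neither arm. With overexpression it stood at 463, 463 and 422 CPM against 432, 409 and 460 CPM (log2 fold change 0.05, SE 0.10, adjusted p = 0.74). Its knockdown libraries at 368, 375 and 425 CPM all lay below the 458, 444 and 487 CPM of the control (log2 fold change -0.25, SE 0.10, adjusted p = 0.0848), a difference that was called without knockdown replicate 3 (-0.32, adjusted p = 0.0411) and by DESeq2 (adjusted p = 0.0233). Transcripts of 233 codons, the BCL-XL length, held 68.8% to 74.3% of BCL2L1 FPKM in the group means. The 170-codon transcript BCL2L1-202, the BCL-XS length, held 2.31%, 0.267% and 0% in the knockdown against 4.24%, 2.53% and 2.63% in its control.

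BCL2 was low throughout. It stood at 4.83, 4.53 and 6.65 CPM with overexpression against 4.2, 4.04 and 3.9 CPM (log2 fold change 0.40, SE 0.22, adjusted p = 0.227), and at 5.05, 4.3 and 5.23 CPM in the knockdown against 6.75, 5.69 and 6.83 CPM (-0.40, SE 0.22, adjusted p = 0.198). In each arm the 3 treated libraries did not overlap with their control, in opposite directions, and neither difference passed. With the assembled transcripts added, that of the knockdown did (-0.69, adjusted p = 0.0167), and so did the difference of the arms (1.19, adjusted p = 0.0061). Between the controls, BCL2 was 1.59-fold lower on the overexpression side (log2 -0.67, adjusted p = 0.0376), a call that held in 12 of 21 other settings. It was lost without overexpression control replicate 2 (adjusted p = 0.0916) or 3 (0.0996) and without knockdown control replicate 1 (0.0975), 2 (0.0548) or 3 (0.105).

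BAK1, the effector that sits in the mitochondrial membrane and is held by MCL1 and BCL-XL, did not pass in either arm. Its overexpression libraries held 36.4, 35.6 and 32.8 CPM, all below the 41.4, 38.9 and 43.5 CPM of their control (log2 fold change -0.24, SE 0.18, adjusted p = 0.382). In the knockdown BAK1 stood at 27.1, 41 and 26.1 CPM against 33, 33.2 and 45.4 CPM (-0.24, SE 0.18, adjusted p = 0.355). Replicate 2 alone was within the control range, and without it the log2 fold change was -0.49 with an adjusted p of 0.0366.

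BCL2L11 codes for BIM, which binds all prosurvival members and activates the effectors, and it rose in the knockdown. Its knockdown libraries held 49.8, 86.9 and 51.7 CPM against 16.4, 16.4 and 15 CPM in their control. Every knockdown library was above every control library, and replicate 2 stood well above the other knockdown libraries. The means were 62.8 ± 20.9 and 15.9 ± 0.828 CPM, a 3.94-fold rise (log2 fold change 1.98, SE 0.25, adjusted p = 0.000552). The call held in 22 of 22 other settings, and without knockdown replicate 2 the log2 fold change was 1.67 (adjusted p = 0.000474).

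With overexpression BCL2L11 stood at 41.3, 37.3 and 37.3 CPM against 62.8, 38.1 and 36 CPM (log2 fold change -0.24, SE 0.24, adjusted p = 0.515). Only control replicate 1 was apart, and without it the log2 fold change was 0.06. The arms differed by -2.22 (SE 0.35, adjusted p = 0.00152). The knockdown control was the low group: the overexpression control held 2.87-fold more BCL2L11 (log2 1.52, SE 0.25, adjusted p = 0.00144), and without overexpression control replicate 1 the log2 difference was 1.22 (adjusted p = 0.00225). The group means ran from the knockdown through the overexpression control and overexpression to the knockdown control. Those of NR0B1 ran from overexpression through its control and the knockdown control to the knockdown. The 198-codon transcript BCL2L11-206 held most of the BCL2L11 FPKM, 61.6% ± 9.66 in the knockdown and 62.1% ± 14.9 in its control.

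BBC3 codes for PUMA, which also binds all prosurvival members, and it fell with overexpression. The overexpression libraries held 9.8, 7.01 and 7.04 CPM and their control 28.9, 25.6 and 28.5 CPM. Both groups were tight and far apart, at 7.95 ± 1.6 and 27.7 ± 1.84 CPM, a 3.48-fold difference (log2 fold change -1.80, SE 0.44, adjusted p = 0.0197). The log2 fold change lay between -1.98 and -1.70 when each library was left out. The call was lost without overexpression replicate 2 (adjusted p = 0.0714), overexpression replicate 3 (0.0755) or control replicate 3 (0.0559), and without overexpression control replicate 1 it held (adjusted p = 0.029).

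The knockdown libraries of BBC3 were spread widely, at 24.6, 56 and 11.4 CPM against 20.5, 19.9 and 26 CPM in the control. Replicate 2 was above and replicate 3 below all control libraries, and the log2 fold change of 0.47 (SE 0.42, adjusted p = 0.444) became -0.30 without replicate 2. The arms differed by -2.27 (SE 0.61, adjusted p = 0.0196). This call ended without overexpression replicate 3 (-2.16, adjusted p = 0.05), and without knockdown replicate 2 the difference was -1.48 (adjusted p = 0.0154). The control groups did not pass for BBC3 (log2 difference 0.32, adjusted p = 0.587). The overexpression libraries, at most 9.8 CPM, lay below all 9 others, the lowest of which was knockdown replicate 3 at 11.4 CPM. Among its transcripts BBC3-201 held 17%, 15.7% and 3.87% of BBC3 FPKM in the knockdown against 22.9%, 44.3% and 23.1% in its control. With overexpression its share was 0%, 31.4% and 13.1% against 2.04%, 45.2% and 35.2%, so it varied widely within a group. In the group means the 261-codon BBC3-204 held 32.8% to 56.2% and the 193-codon BBC3-203 held 4.44% to 11.5%. The BBC3 values thus sum transcripts of several coding lengths.

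BMF codes for a BH3-only protein that is held on myosin motors by a dynein light chain, and its level was low and scattered. It stood at 13, 44.9 and 5.97 CPM in the knockdown against 2.23, 0.0593 and 3.94 CPM in its control. The groups did not overlap, but the knockdown libraries differed among themselves by several fold, and control replicate 2 lay under 3 counts (0.155 to 0.235 CPM). An assembled BMF transcript, TCONS_00048550, was left out of these sums. It held 33.57, 61 and 33.52 expected counts in the knockdown control and 0 in the 3 knockdown libraries. The low control level and the size of the rise thus depend on leaving it out. With assembled transcripts added, BMF was still called higher. The log2 fold change of 3.34 (SE 1.05) passed with an adjusted p of 0.0406, and this call held in 9 of 22 other settings. The call was lost without any one of 9 libraries. These were knockdown replicates 1 (adjusted p = 0.0535) and 2 (2.18, adjusted p = 0.125), the 3 overexpression libraries (adjusted p from 0.0502 to 0.0582), overexpression control replicate 3 (0.0543) and knockdown control replicates 1 (3.37, 0.112), 2 (2.76, 0.0808) and 3 (4.2, 0.0599).

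With overexpression BMF stood at 2.34, 3.57 and 8.61 CPM against 4.01, 19.5 and 9.37 CPM, which overlap (log2 fold change -1.19, SE 0.98, adjusted p = 0.417). This value was -0.47 without control replicate 2 and -1.88 without overexpression replicate 3. The arms differed by -4.53 (SE 1.43, adjusted p = 0.0388), held in 11 of 21 other settings and lost without knockdown replicate 2 (-3.35, adjusted p = 0.0851). It was also lost without overexpression replicates 1 or 2, overexpression control replicates 2 or 3, or knockdown control replicates 1 or 2 (adjusted p up to 0.0959). Between the controls BMF was 5.23-fold higher on the overexpression side, which did not pass (log2 2.39, SE 1.02, adjusted p = 0.0936). The 184-codon transcript BMF-201 held 51.1%, 89.7% and 50% of BMF FPKM in the knockdown and was listed at 0 in the 3 control libraries. With overexpression BMF-201 held 50.7%, 0% and 0% against 0%, 42.1% and 88.3%, so its share varied widely within a group. BMF-202, which has the same coding length, held 27.8%, 0% and 25% in the knockdown against 48%, 0% and 72.9%.

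BID, which caspase 8 cleaves into its active form, passed in neither arm on its own. With overexpression it stood at 30, 24.1 and 27.4 CPM against 50.9, 31.6 and 29.2 CPM (log2 fold change -0.45, SE 0.25, adjusted p = 0.226), and without control replicate 1 the log2 fold change was -0.16. In the knockdown it stood at 24.7, 47.8 and 33.9 CPM, all above the 23.5, 21.6 and 20.5 CPM of the control (0.70, SE 0.25, adjusted p = 0.0658; DESeq2 gave an adjusted p of 0.0363). Without knockdown replicate 2 that log2 fold change was 0.42, and the rise was called without knockdown replicate 1 (0.90, adjusted p = 0.0291) or overexpression control replicate 1 (adjusted p = 0.0301). The difference of the arms, -1.15 (SE 0.36), passed with an adjusted p of 0.0356 and held in 11 of 21 other settings. It was lost without overexpression control replicate 1 (-0.86, adjusted p = 0.0564) and without knockdown replicate 2 (-0.86, adjusted p = 0.0614), and also without any single overexpression or knockdown control library (adjusted p from 0.0512 to 0.0807). Between the controls BID was 1.7-fold higher on the overexpression side (log2 0.77, adjusted p = 0.0369), and 0.47 without replicate 1 of that control (adjusted p = 0.128). That call also ended without overexpression replicate 3 (0.0512) or knockdown control replicates 1 (0.0729), 2 (0.0906) or 3 (0.106).

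PMAIP1 codes for NOXA, which binds chiefly MCL1 and promotes its loss. It stood at 37.1, 34.6 and 37.7 CPM with overexpression against 46.2, 28.9 and 28.2 CPM (log2 fold change 0.08, SE 0.24, adjusted p = 0.841). Its knockdown libraries held 33.9, 41.4 and 20.2 CPM, all below the 45.7, 44.3 and 48.2 CPM of the control (-0.53, SE 0.24, adjusted p = 0.135). Without knockdown replicate 2 this difference was called (-0.77, adjusted p = 0.0365). Between the controls PMAIP1 differed by -0.42 (adjusted p = 0.204), and without overexpression control replicate 1 this was called (-0.69, adjusted p = 0.0419). The 54-codon transcript PMAIP1-202, the NOXA length, held 97.4%, 94.7% and 89% of PMAIP1 FPKM in the knockdown and 100%, 100% and 97.4% in its control.

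BIK, a BH3-only protein of the endoplasmic reticulum, was near the limit of detection. It stood at 1.99, 0.756 and 0.861 CPM with overexpression against 0.954, 0.71 and 0.455 CPM, and at 0.206, 1.41 and 0.308 CPM in the knockdown against 0.469, 0.534 and 0.473 CPM. Both pairs of groups overlapped. The log2 ratio of group means was 0.77 with overexpression and 0.38 in the knockdown, and the latter was -0.94 without knockdown replicate 2.

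**Figure D3:**
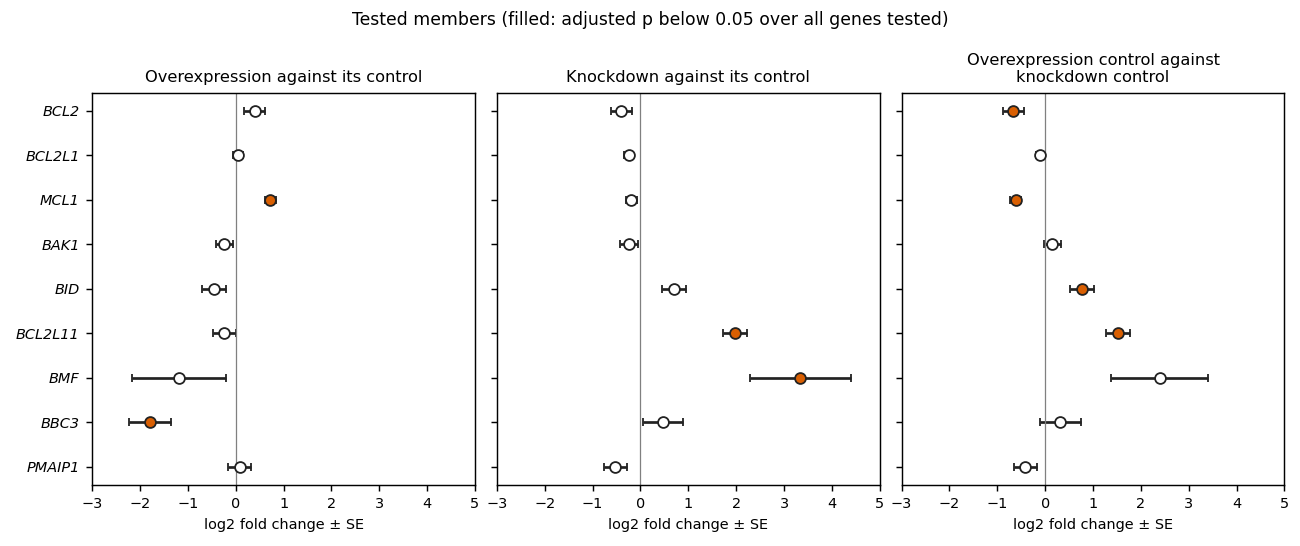
Log2 fold change with its SE (horizontal axis) of the 9 tested family genes, for overexpression, the knockdown and the overexpression control against the knockdown control. Filled points passed an adjusted p of 0.05. MCL1 and BCL2L11 each passed in 1 arm and again between the controls, where both point values were smaller in size than in that arm.

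Across the arms, the difference was called for 5 of the 9 genes, MCL1 higher and BID, BCL2L11, BMF and BBC3 lower, where 25.6% of all genes tested were called. Between the control groups 4 of 9 were called, BID and BCL2L11 higher and BCL2 and MCL1 lower in the overexpression control, beside 33.4% of all genes. Both arms were compared with their own control, and the share of genes called between these controls was larger than in either arm. Without regard to the test, FPKM did not overlap between treated and control libraries for 5 of 10 members with overexpression (41.6% of all genes tested), for 6 of 10 in the knockdown (40.5%), and for 5 of 10 between the control groups (52.6%). Of 40 member transcripts with at least 2% of their gene's FPKM in a group, shares did not overlap for 5 in the knockdown, beside 14.1% of transcripts over all genes.

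Added up per class, the prosurvival genes held 82.3% ± 1.16 of the family's FPKM with overexpression and 73.8% ± 2.22 in its control (SD, n = 3). They held 74.7% ± 7.38 in the knockdown, between 66.5% and 80.8%, and 81.3% ± 0.503 in its control. BH3-only genes held 13.8% ± 1.19 with overexpression and 21.2% ± 2.42 in its control, and 21.5% ± 6.85 in the knockdown and 14.5% ± 0.961 in its control. MCL1 FPKM stood 17.3 ± 1.7 times above BCL2L11 FPKM with overexpression, 8.14 ± 2.1 times in its control, 8.04 ± 1.31 times in the knockdown and 34.9 ± 7.82 times in its control. Without overexpression control replicate 1 that control held 74.9% prosurvival FPKM and a ratio of 9.32. Without knockdown replicate 2 the knockdown held 78.8% and a ratio of 8.79. With all libraries the overexpression control and the knockdown had close mean class shares, and so did overexpression and the knockdown control. NR0B1 stood at 44.4 ± 23.1 CPM in the overexpression control and 4.05 ± 1.56 CPM in the knockdown. It stood at 88.3 ± 9.31 CPM with overexpression and 16.9 ± 3.95 CPM in the knockdown control. Whether NR0B1 bears on these shares was not tested. BCL2L1 and MCL1 made up nearly all prosurvival FPKM of the 10 genes, 82% of their total with overexpression. That total leaves out other family genes, among them BAX (mean of 67.3 FPKM over the 12 libraries), BAD (18), and the prosurvival BCL2L2 (9.07) and BCL2A1 (8.97). These shares follow mostly from the most abundant genes and were not tested.

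For each member called in an arm, the 3 tested genes whose log2(CPM + 1) was most alike over the 12 libraries were listed by Pearson's r, as a description. For MCL1 they were BORCS7 (0.954), ZPR1 (0.954) and LUZP1 (0.950), and for BCL2L11 TNS1 (0.965), GPR137B (0.951) and PON2 (0.949). For BBC3 they were IRF2BPL (0.970), VPS13C (0.963) and RHOU (0.957), and for BMF CERCAM (0.936), ZNF846 (0.914) and ATP2A3 (0.912). Within the family the closest pair was BID and BCL2L11 (0.84). All these values share the same libraries and the same 4 groups.

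Lists of genes around the family show where the rest of the pathway stood. Of 10 tested other members of the BCL2 family, 2 were called with overexpression, near the share of all genes tested (18.1%), and both were lower: BAD, a BH3-only protein controlled by phosphorylation (log2 fold change -0.53, SE 0.13, adjusted p = 0.0186), and BOK, a BAX-like effector (-0.51, SE 0.15, adjusted p = 0.0404). In the knockdown BOK rose (0.49, SE 0.15, adjusted p = 0.0346), as did the little-studied BCL2L15 (1.5, SE 0.37, adjusted p = 0.015), and the prosurvival BCL2L2 (BCL-W) fell (-0.63, SE 0.15, adjusted p = 0.0124). The BAD call was lost without overexpression replicates 2 or 3 or their control replicates 2 or 3 (adjusted p from 0.0552 to 0.079) and held in 17 of 22 other settings. The BOK calls held in 7 of 22 other settings with overexpression and 11 of 22 in the knockdown. Those of BCL2L15 and BCL2L2 held in 19 and 21 of 22, and were lost without knockdown control replicate 3 (adjusted p = 0.0502 and 0.0505), that of BCL2L15 also without control replicate 2 (0.0595). Between the controls BCL2L15 differed by 1.84, BCL2L2 by -0.52 and BAD by -0.37 (adjusted p = 0.0043, 0.0204 and 0.0428). Mean BCL2L15 was 0.697 CPM in the knockdown control, 1.99 in the knockdown, 2.17 with overexpression and 2.51 in its control. BAX stood at 69.3 ± 6.86 CPM with overexpression and 80.8 ± 5.96 CPM in its control, and at 98.2 ± 6.94 CPM in the knockdown and 87.8 ± 8.32 CPM in its control, and passed in neither arm (adjusted p = 0.189 and 0.311). The list's median log2 fold change was -0.20 with overexpression and 0.12 in the knockdown.

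Downstream of the membrane, 0 of 16 genes of the apoptosome and the caspases passed with overexpression, beside 18.1% of all genes tested. There CYCS (cytochrome c) had a log2 fold change of 0.57 (adjusted p = 0.0864) and DIABLO, an inhibitor of IAP proteins, -0.06 (adjusted p = 0.782). CYCS was called in 5 of 22 other settings, among them without overexpression control replicate 1 (0.80, adjusted p = 0.0209), without both libraries that stand apart (0.80, adjusted p = 0.000896) and by DESeq2 (adjusted p = 0.0462). At an unadjusted p below 0.05 edgeR gave 3 higher and 3 lower in this list, and by adjusted p DESeq2 gave 2 higher and 1 lower and limma on FPKM 1 higher. In the knockdown 1 of 16 was called, beside 23.9% of all genes tested. This was APAF1, the scaffold that activates caspase 9, which rose from 37.6 ± 5.11 to 58 ± 4.31 CPM (0.62, SE 0.12, adjusted p = 0.00364), in 22 of 22 other settings as well. At an unadjusted p below 0.05 edgeR gave 2 higher and 3 lower there. By adjusted p DESeq2 and limma on FPKM each gave 1 higher and 1 lower. CYCS stood at -0.61 in the knockdown (adjusted p = 0.062). For the difference of the arms 1 gene was called higher, CYCS (1.18, adjusted p = 0.0167), and 2 lower, beside 25.6% of all genes tested. Between the controls CYCS differed by -0.60 (adjusted p = 0.052). Of 10 mitochondrial partners 0 passed with overexpression by edgeR, DESeq2 or limma, and 0 at an unadjusted p below 0.05, with the pore proteins VDAC1 and VDAC2 at -0.07 and -0.11. In the knockdown 1 of 10 was called, beside 23.9% of all genes tested. MTCH2, a receptor for truncated BID, rose (0.44, SE 0.14, adjusted p = 0.0425), a call that held in 6 of 22 other settings. It was called between the controls too (0.40, adjusted p = 0.048). At an unadjusted p below 0.05 edgeR gave 5 higher and 1 lower in the knockdown. By adjusted p DESeq2 gave 2 higher and 1 lower, and limma on FPKM 0.

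Of 10 genes that set the life of the MCL1 protein, 2 were called with overexpression, near the 18.1% of all genes tested. FBXW7, a ubiquitin ligase subunit that targets MCL1, rose (0.50, SE 0.14, adjusted p = 0.0367), and USP9X, which removes ubiquitin from MCL1, fell (-0.33, SE 0.10, adjusted p = 0.0403). These calls held in 14 and 9 of 22 other settings. USP9X was called between the controls too (0.56, adjusted p = 0.0022). In the knockdown the ERK phosphatase DUSP6 fell (-1.35, SE 0.36, adjusted p = 0.0199), a call lost without knockdown replicates 1 (0.0648) or 3 (0.0568) or control replicate 3 (0.0656). No protein was measured.

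Of 19 tested regulators of BH3-only transcription, edgeR called 5 with overexpression, all higher, and 8 in the knockdown, all lower, beside 9.87% of all genes called higher with overexpression and 11.5% called lower in the knockdown. The list was chosen with earlier results of these data known, so its counts beside those of all genes are a description and not a test. The list's median was -0.02 with overexpression and -0.44 in the knockdown. MYC and the AP-1 subunit JUN were called in opposite directions, at 1.97 and 2.52 with overexpression (adjusted p = 0.00118 and 0.000212) and -1.40 and -1.23 in the knockdown (adjusted p = 0.00251 and 0.00268). BRD2, a bromodomain reader of acetylated histones, rose with overexpression (1.40, SE 0.16, adjusted p = 0.000732), as did the stress factor ATF4 (0.62, SE 0.17, adjusted p = 0.031). The ATF4 call held in 16 of 22 other settings and was lost without any overexpression library or without overexpression control replicates 2 or 3 (adjusted p from 0.0601 to 0.112). ATF3, another stress factor, fell in the knockdown (-2.84, SE 0.50, adjusted p = 0.00281), as did CREB1 (-0.68, SE 0.14, adjusted p = 0.00629). MYC and JUN were called between the controls too, at -2.41 and -2.47 (adjusted p = 0.000249 and 0.000127), as were ATF3 and CREB1, at -2.28 and -0.76 (adjusted p = 0.00533 and 0.00264). Mean MYC was 303 CPM with overexpression, 77.1 in its control, 156 in the knockdown and 411 in its control. For JUN these means were 284, 49.3, 117 and 273 CPM. Named after its value was seen to complete these counts, ATF3 was the fifth gene with overexpression (adjusted p = 0.0499). RELA, STAT5B, TRIB3 and FOXO3, named likewise, were the other 4 in the knockdown, with FOXO3 at -0.62 (adjusted p = 0.0244). FOXO3 and TRIB3 were called between the controls too, at -0.73 and -1.66 (adjusted p = 0.00925 and 0.0357), and RELA and STAT5B were not. Mean FOXO3 was 66.2 CPM with overexpression, 61.5 in its control, 66.1 in the knockdown and 102 in its control. DESeq2 called 5 higher with overexpression and 9 lower in the knockdown, and limma on FPKM 5 higher and 1 lower, and 9 lower. Between the controls edgeR called 8 of the 19, all lower in the overexpression control, beside 33.4% of all genes called and 16.1% called lower. DESeq2 gave 8 lower and 1 higher there.

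Of 12 further partners, BCAP31, an endoplasmic reticulum protein cut by caspase 8, was called in opposite directions, -0.60 with overexpression (SE 0.12, adjusted p = 0.00807) and 0.41 in the knockdown (SE 0.12, adjusted p = 0.0261). Its knockdown call held in 16 of 22 other settings, and was lost without knockdown control replicates 1 (0.29, adjusted p = 0.117) or 3 (0.0542), knockdown replicate 3 (0.0576) or overexpression replicate 3 (0.0506). DYNLL2, the dynein light chain that holds BMF, rose with overexpression (0.64, SE 0.16, adjusted p = 0.0209), and the kinase MAPK3 (ERK1), which marks BIM for degradation, fell (-0.55, SE 0.15, adjusted p = 0.0302). The DYNLL2 call held in 17 of 22 other settings and was lost without overexpression replicates 2 or 3 or their control replicates 2 or 3 (adjusted p from 0.053 to 0.0822). That of MAPK3 held in 14 of 22, and was lost without any overexpression library, overexpression control replicates 2 or 3 or knockdown control replicate 1 (adjusted p from 0.0503 to 0.103) and by limma. BMI1, a Polycomb protein known to repress PMAIP1, fell in the knockdown (-0.78, SE 0.10, adjusted p = 0.000674), from 76.8 ± 4.03 to 44.8 ± 3.87 CPM. BCAP31, MAPK3 and BMI1 were called between the controls too, at 0.39, 0.80 and -0.50 (adjusted p = 0.0257, 0.0032 and 0.00447).

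**Figure D4:**
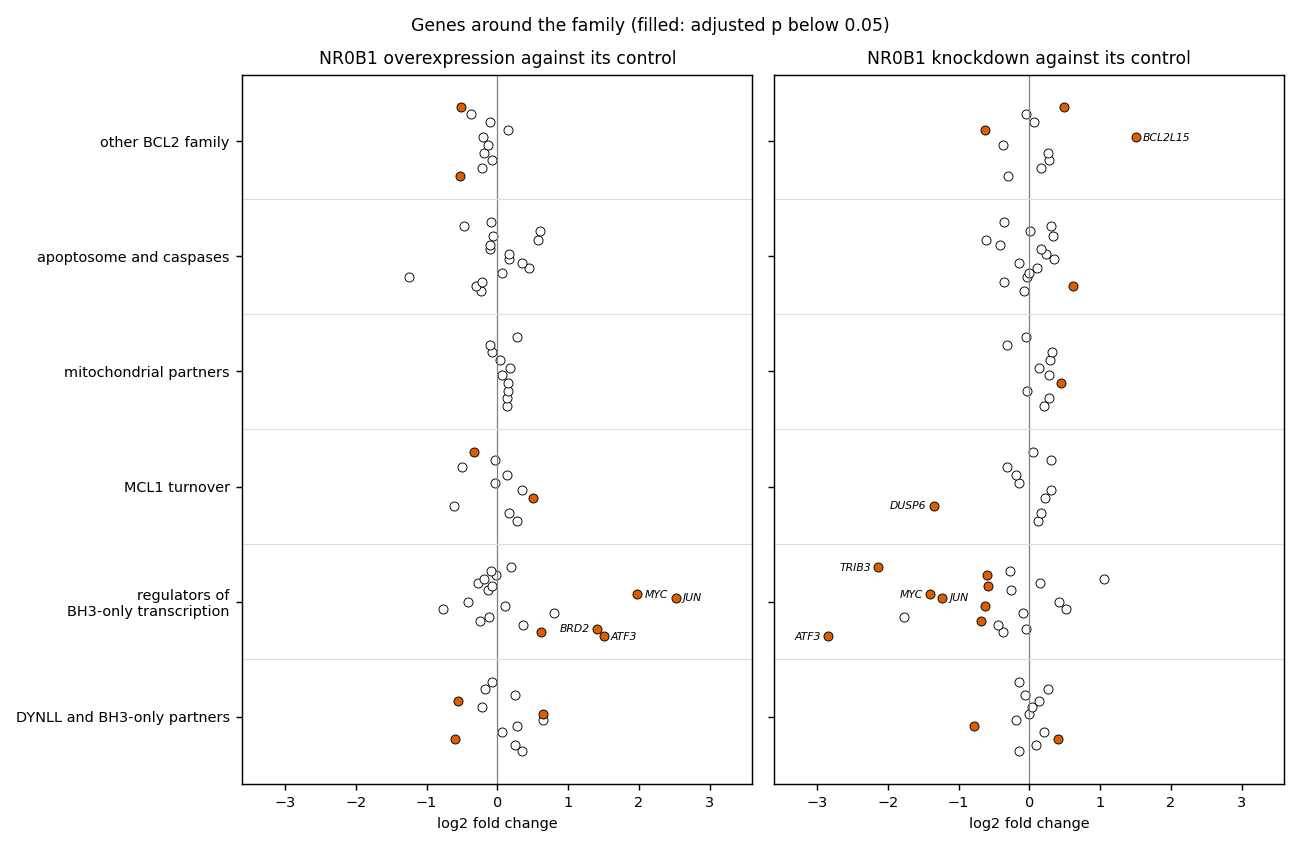
Log2 fold change (horizontal axis) of each tested gene of the 6 lists, by list, for overexpression (left) and the knockdown (right). Filled points passed an adjusted p of 0.05, and called genes beyond 1 in size are named. Among the regulators of BH3-only transcription, the 5 called genes lie to the right with overexpression and the 8 called genes to the left in the knockdown. The lists were chosen with earlier results of these data known.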

How the data were processed

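The members and gene lists were chosen with earlier results of these data known. The authors deposited expected counts and FPKM per transcript for 12 libraries, per the file headers. Per the submitters' processing notes, RSEM, StringTie 1.3.1, Bowtie2 2.2.8, HISAT2 2.0.5 and fastp were used. Those notes give mouse builds (GRCm38, mm10), but the identifiers are human. Coordinates are from GENCODE 29 (GRCh38), and promoters from RefSeq (GRCh38.p14). Of 96247 transcript rows, 82270 with Ensembl identifiers were summed per symbol to 19647 genes, after 184 symbols turned into dates had been restored. The 13977 assembled transcripts were left out. Sums of expected counts were rounded. The 11908 genes that reached 1 FPKM in 3 or more libraries were tested with edgeR 4.0.16 (quasi-likelihood, robust, TMM) in R 4.3.3, with all 12 libraries in 1 fit (8 residual degrees of freedom, biological coefficient of variation 24.5%) and no covariate. A gene was called at a Benjamini-Hochberg adjusted p below 0.05. The SE is approximate, from the log2 fold change and the F statistic. CPM use TMM-adjusted library sizes. Depth was between 12800748 and 19654432 expected counts per library, and counts of a low gene carry counting error beyond the spread shown. The fit was tested on simulated counts.

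All members are described. From each list, up to 4 called genes with the smallest adjusted p per arm are named, or the 2 of highest mean FPKM where none passed. Alternatives were DESeq2 1.42.0 and its size factors, limma 3.58.1 on log2(FPKM + 1) and log2(FPKM + 0.1), other filters, single-arm fits, a replicate block, added assembled transcripts, and each library left out. Leaving out both outlying libraries together was an alternative chosen after seeing the data. FPKM differences were also tested by two-sided exact permutation. 1 gene of the lists is counted but not reported here.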

Additional observations from a re-analysis of the deposited data

Results flagged for a closer look

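For 5 members the response to overexpression differed from the response in the knockdown by a test of the difference itself (edgeR's quasi-likelihood test, adjusted over all genes tested). The log2 difference was 0.92 for MCL1, -1.15 for BID, -2.22 for BCL2L11, -4.53 for BMF and -2.27 for BBC3. For MCL1 and BCL2L11 the difference stayed called in 21 of 21 other settings, and for BBC3 in 19. For BID and BMF it did in 11 of 21. The control groups differed by the test for MCL1, BID and BCL2L11. For BMF they differed by 2.39 on the log2 scale (adjusted p = 0.0936). That was called with assembled transcripts added (2.05, adjusted p = 0.0275) and without both libraries that stand apart (2.78, adjusted p = 0.037). For these genes, BMF among them, the part of the difference that comes from the controls cannot be told apart from that of the treated groups.

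Assembled transcripts were left out of the gene values. TCONS_00094550, which the table assigns to BCL2L1, had a mean of 4.87 FPKM in the knockdown (5.14, 4.71 and 4.77) against 3.2 FPKM in its control (2.09, 3.23 and 4.27), and these libraries do not overlap. It stood at 7.75 FPKM with overexpression and 6.85 FPKM in its control. The other assembled BCL2L1 transcript, TCONS_00094549, had a mean of 2.52 FPKM in the knockdown (3.45, 4.1 and 0) against 6.49 FPKM in its control (10.8, 6.32 and 2.31), and these libraries overlap.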

How the results depend on the processing

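Of the 10 members 9 were tested, and calls near the threshold depended on the setting. The count of members called in the knockdown, 2 by the reported fit, was 4 with DESeq2, 1 without the filter, 1 with only the libraries of the arm, and 4 without both libraries that stand apart. Of all genes tested, 23.9%, 30%, 14.9%, 15.4% and 37.7% were called in these settings, in the same order. When each library was left out, members called ran from 1 to 2 with overexpression, 1 to 3 in the knockdown, 3 to 5 for the difference of the arms and 2 to 4 between the controls. The share of all genes called ran from 6.89% to 27.7%, 12.6% to 28.8%, 17.9% to 31.8% and 21.5% to 41.3% in these comparisons. The log2 fold change of BCL2L11 with overexpression lay between -0.384 and 0.061 over the fits without a library and was 0.061 without both libraries. That of BBC3 in the knockdown ran from -0.302 to 0.861 and was -0.295 without both. BAK1 between the arms ran from -0.15 to 0.26 (-0.027, -0.037, -0.093, -0.112 and -0.146 where it turned), and PMAIP1 with overexpression from -0.04 to 0.35 (-0.030 and -0.042). With overexpression DIABLO ran from -0.191 to 0.068 and VDAC2 from -0.170 to 0.006. The causes were not tested.

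Genes called with overexpression numbered 2152 by the reported fit, between 821 and 3300 when each library was left out, and 4462 without both libraries. In the knockdown they numbered 2851, between 1503 and 3435, 1833 with only the libraries of the arm and 4493 without both. With limma on log2(FPKM + 1), 41.1% of knockdown calls were higher, against 51.9% by the reported fit.

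The labels give the groups the same replicate numbers, but same-numbered libraries did not deviate together (r of 0.2, 0.13 and 0.01 with overexpression and -0.01, -0.09 and -0.06 in the knockdown). With a replicate block, 2 members were called with overexpression, 1 in the knockdown and 2 for the difference of the arms. Of all genes tested, 13.1%, 18.8% and 21.6% were called there, with 1557 and 2240 genes in the arms. Low counts limit BMF, BIK and BCL2: a gene with 3 counts stands at 0.155 to 0.235 CPM.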
